A study of Mus musculus with 1 sample.

Results

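The transcripts of 10 genes that join the stress factor ATF4 to the making of serine and its one-carbon units were described in 1 RNA sequencing library of mouse pancreas fibroblasts. The genes were fixed by name and looked up among the gene symbols of the deposited table: Atf4, Ddit3, Trib3, Chac1, Asns, Phgdh, Psat1, Psph, Shmt2 and Mthfd2. All 10 had exactly 1 row, out of 23386 genes. The submitters described the fibroblasts as expanded in culture from a normal pancreas. Their total RNA was taken up in TRIzol and sequenced by SOLiD chemistry. The donor animal was of a mixed C57BL/6 and BALB/c background, with the genotype written tf1acre-;KrasWT;Tgfrb2flox/flox; the labels give no age, no passage and no pooling. The title of the series sets such normal fibroblasts beside cancer-associated fibroblasts, but a single library, labelled as normal fibroblast, is analysed here. The value column of its table carries a CAF code, which goes against that label, so the condition of the cells is not settled and no direction between conditions is drawn. With 1 library there is no replicate check and no test, and each interval below is a 95% interval of counting error, which leaves out the spread between cultures.

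ATF4 is a transcription factor whose protein is made when kinases phosphorylate the initiation factor eIF2, under amino acid shortage, ER stress or related stresses. Because that control acts on translation, the level of its mRNA does not report the level of the protein. ATF4 raises genes that supply amino acids, the serine pathway among them, and, with its partner CHOP, genes of stress and cell death. Serine is made from the glycolytic intermediate 3-phosphoglycerate by PHGDH, PSAT1 and PSPH in turn. SHMT2 then splits serine in mitochondria into glycine and a one-carbon unit, and MTHFD2 oxidises that unit towards formate. Glycine makes up much of the collagen triple helix, which fibroblasts secrete in bulk.

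The ATF4 response element is a composite site for ATF4 and a C/EBP partner, and the letters TGATGNAA were searched on both strands of RefSeq promoter windows (GRCm38.p6, 250 bases before to 50 after each start). All 10 genes had a window, Psat1 more than 1, which gave 11 windows. The letters stood in the windows of Chac1, Trib3 and Asns. That is 3 of 11 windows, beside 3.97% of all 32851 windows and 3.25% of the 19614 windows of protein-coding genes of the table. By gene it is 3 of the 10, beside 3.81% of 16022 protein-coding genes of the table that had a window. The 3 stretches are shown because they carry these matches, in capitals, read along each gene. The Asns match reads on the gene's own strand and the other 2 on the opposite strand. The Chac1 stretch is chr2:119351003-119351102 (plus strand, positions -239 to -140 from the start), the Asns stretch is chr6:7693210-7693278 (minus strand, the 69 bases before the start), and the Trib3 stretch is chr2:152344028-152344057 (minus strand, bases 4 to 33 after the RefSeq start).

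Chac1: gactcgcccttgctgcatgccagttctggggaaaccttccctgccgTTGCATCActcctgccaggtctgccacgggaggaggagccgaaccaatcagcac
Asns: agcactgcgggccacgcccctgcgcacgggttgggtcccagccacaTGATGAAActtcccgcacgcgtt
Trib3: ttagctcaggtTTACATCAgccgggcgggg

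These matches are descriptions of letters, not of binding. The spelling was chosen after the matches of several spellings had been seen: with TGATGCAA (0.895% of windows) or TGANGCAA (3.69%) only Chac1 matched, with ATTGCATCA (0.192%) none of the 10, and with the core TGATG alone (39.3%) Mthfd2 matched as well. The other 7 genes, Atf4, Ddit3, Phgdh, Psat1, Psph, Shmt2 and Mthfd2, hold no TGATGNAA in these windows, which says only that the letters are not there. Levels are compared between genes as RPKM, which is reads per 1000 bases of exon per 1000000 reads, with exact Poisson intervals. Of the 3 genes with a match, Asns took place 4 of the 10 by level, Chac1 place 7 and Trib3 the last, and the leading 3 (Atf4, Psat1 and Shmt2) had no match. A link between match and level was not tested.

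The reads recovered over all genes of the table summed to 52494688, the total behind CPM and RPKM, which is not a count of reads sequenced. Fibroblast genes led the cell type markers: all 10 of that list had between 289 and 10582 CPM (reads per 1000000 reads) and summed to 23707 CPM. Mesothelial markers (6 of 6 with at least 10 reads) summed to 703 CPM, between 11.1 and 218 CPM, and acinar markers (5 of 6) to 285 CPM, between 0.114 CPM for Ptf1a and 87.2 CPM. These sums run over lists of unlike size and gene length. Per length, fibroblast markers ran from 36.5 RPKM (Pdgfra) to 906 RPKM (Fn1). Mesothelial ones ran from 5.98 RPKM (Krt19) to 67.6 RPKM (Upk1b), and acinar ones from 0.0758 RPKM (Ptf1a) to 58.5 RPKM (Ctrb1). Ductal markers summed to 32.1 CPM and leukocyte markers (5 of 6 with at least 10 reads) to 15.2 CPM. The highest leukocyte markers were Lyz2, at 483 reads and 9.20 CPM, and Cd68, at 235 reads and 4.48 CPM. The lowest was Cd3e, at 3 reads. Endothelial markers summed to 183 CPM, nearly all of it Kdr, with Pecam1 at 13 reads. Of 4 endocrine genes Sst was at 0, a count that allows up to 3 reads. The part of these other cells in the levels below was not tested, and in a bulk library fewer cells of a type and less RNA per cell cannot be told apart.

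All 10 genes were detected, which means at least 10 reads, as were 67.6% of protein-coding genes. Together they took 45890 reads, or 0.0874% of the reads recovered over all genes. Their median level was 50.6 CPM, and 19.1 RPKM per length, beside medians of 1.22 RPKM over all protein-coding genes and 4.94 RPKM over those detected. All 10 lay above the detected median, as did 34% of protein-coding genes. That count includes Trib3, whose interval crosses the line, and was 9 with the length of the longest transcript and 8 without division by length. Atf4, Psat1, Shmt2 and Asns, 4 of the 10, stood among the highest 10% of detected genes, above 29.7 RPKM, as did 6.8% of protein-coding genes. The 10 genes spread over a 17.9-fold range, from 5.0 RPKM for Trib3 to 89.6 RPKM for Atf4.

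**Figure D1:**
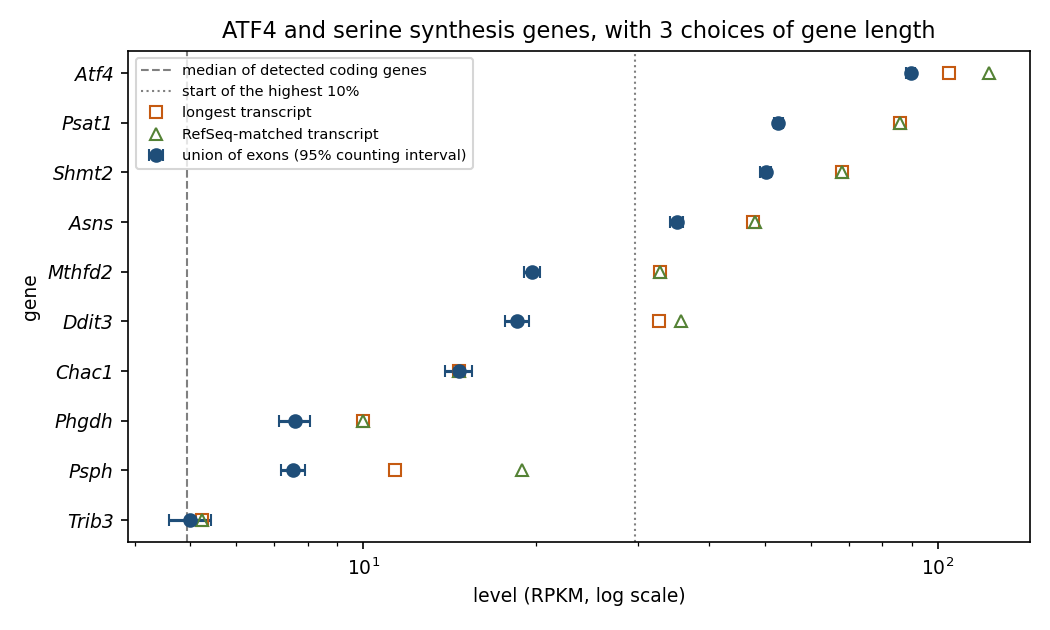
Level of each of the 10 genes in the single library (x axis, RPKM, log scale; y axis, gene). Filled circles with bars are RPKM over the union of exons with 95% counting intervals; open squares and triangles divide the same reads by the longest and by the RefSeq-matched transcript. Dashed and dotted lines are the median (4.94) and the start of the highest 10% (29.7) of detected protein-coding genes over the union of exons. Atf4, Psat1 and Shmt2 lead and Trib3 is last with each of the 3 lengths, while Psph moves most.

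Atf4, the transcription factor itself (chromosome 15, 80255184 to 80257545), was the highest of the 10 per length. It had 11097 reads, 211 CPM (207 to 215) and 89.6 RPKM (88.0 to 91.3), above 98.0% of detected protein-coding genes. It stayed first under all 4 lengths tried. Its level per length was 2.45 times that of Atf5 (2.37 to 2.55), the bZIP factor most related to it.

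The stress effectors downstream were far lower. Ddit3, which encodes CHOP (chromosome 10, 127290793 to 127296291), had 1666 reads, 31.7 CPM (30.2 to 33.3) and 18.5 RPKM (17.6 to 19.4), so Atf4 was 4.84 times higher per length (4.6 to 5.1), a ratio that lay between 3.20 and 4.84 over the lengths tried. On the opposite strand, exons of Mars, a methionyl-tRNA synthetase gene with 10282 reads, share 68 of 1713 exonic bases with Ddit3, and Gm4189 shares 13. On the same strand, a second GENCODE M21 gene that is also named Ddit3 shares 105 of these bases. The assignment of reads there was not given in the sources used here.

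Chac1, whose product degrades glutathione (chromosome 2, 119351242 to 119354326), had 1259 reads, 24.0 CPM (22.7 to 25.3) and 14.7 RPKM (13.9 to 15.5). Trib3, a pseudokinase gene that is induced by ATF4 and dampens its activity (chromosome 2, 152337425 to 152344060), had 558 reads, 10.6 CPM (9.77 to 11.5) and 5.0 RPKM (4.6 to 5.43). Trib3 was last under all 4 lengths, and Atf4 exceeded it 17.9 times per length (16.5 to 19.5). It stood at percentile 50.3 of detected protein-coding genes, so near their middle.

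Asns, the asparagine synthetase gene and a classical ATF4 target (chromosome 6, 7675165 to 7693209), stood above these effectors. It had 5036 reads, 95.9 CPM (93.3 to 98.6) and 35.1 RPKM (34.1 to 36.1). Set beside Nars, the asparaginyl-tRNA synthetase gene, Asns was at 0.511 of its level per length (0.495 to 0.527), and at 0.325 with coding length. The stress branch thus ran, per length, in the order Atf4, Asns, Ddit3, Chac1, Trib3. The order of Asns and Ddit3 turned with coding length, at 57.0 and 63.0 reads per 1000 coding bases per 1000000 reads.

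The 3 enzymes of serine synthesis were uneven, with the middle step far above the first and the last. Psat1, the aminotransferase gene (chromosome 19, 15905123 to 15925059), had 11782 reads, 224 CPM (220 to 229) and 52.8 RPKM (51.8 to 53.7), and alone gave 25.7% of the reads of the 10 genes. Phgdh, the gene of the first and committing step (chromosome 3, 98313171 to 98339969), had 991 reads, 18.9 CPM (17.7 to 20.1) and 7.59 RPKM (7.13 to 8.08). Psph, the phosphatase gene of the last step (chromosome 5, 129765558 to 129787443), had 1717 reads, 32.7 CPM (31.2 to 34.3) and 7.56 RPKM (7.20 to 7.92).

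Psat1 exceeded Phgdh 6.95 times per length (6.51 to 7.42) and Psph 6.98 times (6.64 to 7.35). Over the lengths tried the first ratio lay between 6.95 and 16.9 and the second between 3.99 and 7.54, so Psat1 was higher with each of them. Phgdh and Psph could not be ordered: their ratio was 1.01 (0.929 to 1.09) over the union of exons, but 0.528 with the RefSeq-matched transcript and 0.236 with coding length.

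The Phgdh value carries a limit that Psat1 does not. In GENCODE M21, transcripts of 11 other genes matched 89.5% of the bases of the longest Phgdh transcript at 95% identity or more over at least 50 bases. Further genes matched shorter Phgdh transcripts, among them Gm8096, over 462 bases and with 93 reads. The only other gene matched to Phgdh that had a row was Vmn2r-ps54, over 118 bases and with 3 reads. The same search found no copy of Psat1, Atf4, Shmt2, Asns, Mthfd2, Chac1 or Trib3 in their longest transcripts. A shorter Shmt2 transcript matched Gm15544, a gene without a row in the table, over 180 bases. Pieces of Shmt1, the paralog of Shmt2, matched 64 other genes, over 8.40% of its longest transcript. For Psph, 8.86% of the bases matched Cct6a, a chaperonin gene with 12242 reads whose exons overlap it on the opposite strand. The counting of reads shared by copies was not given in the sources used here, and their part in the low Phgdh value was not tested.

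The mitochondrial arm that uses serine was well represented. Shmt2 (chromosome 10, 127517123 to 127522444) had 8188 reads, 156 CPM (153 to 159) and 50.2 RPKM (49.1 to 51.3). Psat1 was at 1.05 times its level per length (1.02 to 1.08) over the union of exons, at 1.26 times with the longest transcript and at 1.87 times with coding length. Shmt1, the cytosolic enzyme of the same reaction, had 1399 reads and 6.86 RPKM (6.51 to 7.23), so that Shmt2 exceeded it 7.31 times per length (6.91 to 7.74). That ratio lay between 5.55 and 7.31 over the lengths tried.

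Mthfd2, the mitochondrial dehydrogenase and cyclohydrolase gene (chromosome 6, 83305704 to 83326011), had 3596 reads, 68.5 CPM (66.3 to 70.8) and 19.6 RPKM (19.0 to 20.3). It hardly differed from Ddit3, at 1.06 times its level (1.0 to 1.12), and their order turned with the RefSeq-matched and coding lengths. Its mitochondrial paralog Mthfd2l had only 356 reads and 1.02 RPKM (0.917 to 1.13), so Mthfd2 was 19.2 times higher per length (17.3 to 21.5; between 9.30 and 20.1 over the lengths). Mthfd1l, which completes the mitochondrial route to formate, had 10.5 RPKM, or 0.533 of Mthfd2 (0.506 to 0.561), a ratio that was 0.383 with the longest transcript and 0.272 with coding length.

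The cytosolic side was not low throughout. Mthfd1, the cytosolic enzyme that carries out the same folate steps, had 9224 reads and 39.6 RPKM (38.8 to 40.4), so Mthfd2 was at 0.497 of its level per length (0.478 to 0.516). With coding length the ratio was 0.929. Thus for the serine-splitting step the mitochondrial transcript was the more abundant, and for the next folate step the cytosolic one was. Shmt2 itself stood 2.55 times above Mthfd2 per length (2.46 to 2.66; between 1.77 and 2.55 over the lengths).

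**Figure D2:**
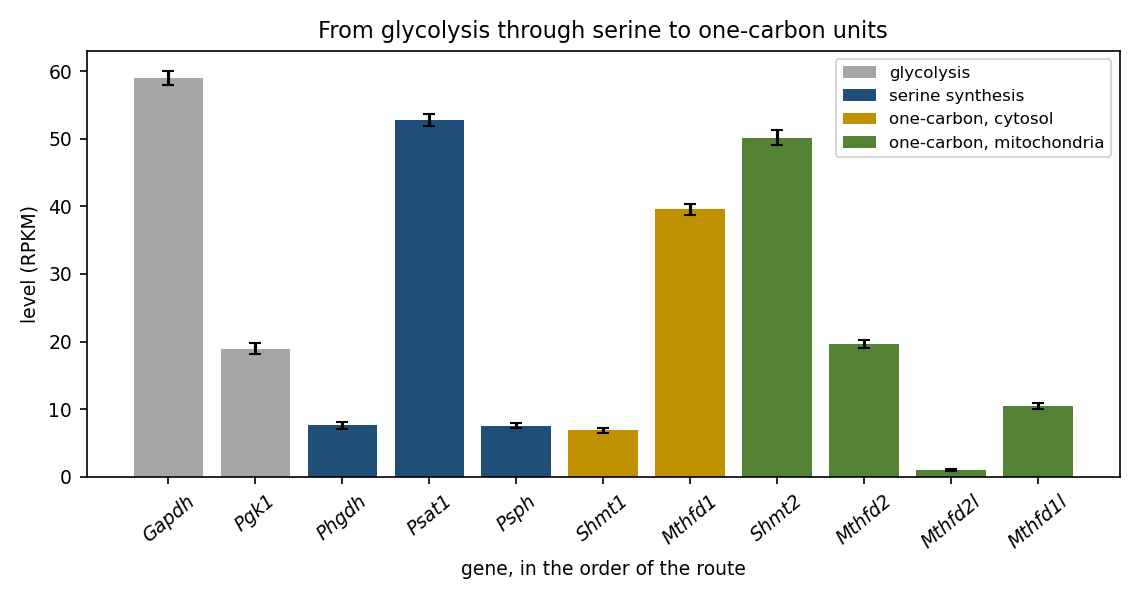
Level (y axis, RPKM over the union of exons, from 0) of genes along the route from glycolysis through serine to one-carbon units (x axis) in the single library; bars are RPKM, error bars 95% counting intervals, colours the compartment or pathway. Psat1 at 52.8 RPKM stands between Phgdh at 7.59 and Psph at 7.56, and Shmt2 at 50.2 stands above Shmt1 at 6.86. Phgdh, Gapdh and Pgk1 have near-identical copies elsewhere in the genome.

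At the glycolytic branch point, genes that handle 3-phosphoglycerate exceeded Phgdh in this table. Pgk1, which makes the intermediate, had 18.9 RPKM, or 2.49 times Phgdh (2.31 to 2.69; between 2.33 and 2.95 over the lengths). Pgam1, which draws it on through glycolysis, had 39.7 RPKM, or 5.23 times (4.88 to 5.61; between 4.44 and 9.04 over the lengths). Gapdh had 59.0 RPKM, or 7.77 times Phgdh (7.28 to 8.29), a ratio that lay between 7.43 and 19.8 over the lengths. Pkm had 57.2 RPKM and Eno1 4.14 RPKM. Over the union of exons 4 of these 5 genes lay above the detected median. So did 34% of all and 6940 of 13880 detected protein-coding genes, and other lengths were not tried for the count of these 5 genes. The union is much longer than the RefSeq-matched transcript for Eno1, at 5379 and 2027 bases, and for Pkm, at 5001 and 2432. The place of Eno1 below the median was therefore seen over the union of exons only. Copies in other genes matched 38.3% of the longest Gapdh transcript, 68.8% of Pgk1, 43.1% of Pgam1, 85.6% of Eno1 and 65.5% of Pkm, so these levels share the limit of Phgdh. For Gapdh that share is 1259 of 3289 bases, while its RefSeq-matched transcript has only 1420 bases. The 38.3% therefore does not make Gapdh the least affected of the 5. Some copies hold reads in the table: Eno1b had 2319 reads beside 1170 for Eno1, and Gm12070 9139 beside 12795 for Gapdh. With the reads of these copies added, Eno1 would have 12.4 RPKM, above the detected median, and Gapdh 101 RPKM, sums that were formed after the values were seen.

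The upstream genes of the eIF2 kinase and phosphatase list were all detected, as were 67.6% of protein-coding genes. Over the union of exons all 8 lay above the detected median, as did 34% of all and 6940 of 13880 detected protein-coding genes. The lowest, Eif2ak3 (5.06 to 5.57 RPKM), was near that line at 4.94 RPKM, and other lengths were not tried for this count. The list median was 11.9 RPKM. Among the kinases, Eif2ak2 (PKR) had 12.5 RPKM, Eif2ak1 (HRI) 10.3 RPKM, the amino acid sensor Eif2ak4 (GCN2) 8.05 RPKM and the ER sensor Eif2ak3 (PERK) 5.31 RPKM. Eif2ak3 was at 0.660 of Eif2ak4 per length (0.621 to 0.700). The constitutive phosphatase subunit gene Ppp1r15b had 29.8 RPKM, against 11.2 RPKM for Ppp1r15a, the subunit that stress induces. Eif2s1, the subunit that is phosphorylated, had 13.0 RPKM, and Eif2b5, of the exchange factor it inhibits, 35.7 RPKM.

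Among partners and related bZIP factors, 6 of 10 lay above the detected median, as did 34% of all and 6940 of 13880 detected protein-coding genes. The list median was 12.4 RPKM. Nfe2l2, the gene of the oxidative stress factor NRF2, had 45.0 RPKM, Atf5 36.5 RPKM, Xbp1, of the unfolded protein response, 35.0 RPKM and the ATF4 partner gene Cebpb 30.9 RPKM. Atf6 had 16.4 RPKM and Cebpg, another partner, 8.43 RPKM. The stress-induced genes Nupr1 (3.02 RPKM) and Atf3 (2.33 RPKM) were lower, as were Cebpd (1.91 RPKM) and Cebpa (0.918 RPKM). TGATGNAA stood in the windows of Nupr1 and Atf3, so in 2 of the 8 of these genes with a window, beside 3.81% of protein-coding genes.

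Of 20 further ATF4 targets, all were detected, as were 67.6% of protein-coding genes. Of the 20, 11 lay above the detected median, as did 34% of protein-coding genes. Among detected genes alone 6940 of 13880 lie above it, so 11 of 20 is near that share. In the highest 10% of detected genes stood 5 of the 20, as did 6.8% of protein-coding genes. The list median was 5.55 RPKM beside the 19.1 RPKM of the 10 genes. The leading 5 were amino acid transporters and tRNA synthetases: Slc38a2, a neutral amino acid transporter gene, had 79.6 RPKM, Gars 76.5 RPKM, Nars 68.6 RPKM, Slc3a2, the heavy chain of several transporters, 61.0 RPKM and Slc7a5, its large neutral amino acid partner, 43.4 RPKM. The lowest were the secreted factors Stc2, with 71 reads and 0.261 RPKM, and Fgf21, with 13 reads and 0.260 RPKM. ATF4 targets were therefore not at a common level in this library. Among the 15 of these genes with a promoter window, TGATGNAA stood in those of Slc7a11, Gars, Fgf21, Herpud1, Pck2 and Vldlr, so in 6 of 15 beside the 3.81% of protein-coding genes. Their levels ran from 0.260 RPKM for Fgf21 to 76.5 RPKM for Gars. None of 14 one-carbon and glycine cleavage genes, 7 eIF2 genes or 5 glycolysis genes with a window held these letters. At a share of 3.81%, lists this short can readily hold none, so no contrast with the targets is drawn.

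In the list of one-carbon and glycine cleavage genes all 17 were detected, as were 67.6% of protein-coding genes. Of the 17, 12 lay above the detected median, as did 34% of all and 6940 of 13880 detected protein-coding genes. The median of the list was 6.22 RPKM. Mthfd1 led it, followed by Dld, a subunit shared with other dehydrogenases, at 24.6 RPKM, the lipoyl carrier gene Gcsh at 19.3 RPKM, Fpgs, which retains folates in cells, at 11.5 RPKM, and Mthfd1l. The lowest were the cleavage system gene Amt, with 48 reads and 0.375 RPKM, and the cytosolic formyltetrahydrofolate dehydrogenase gene Aldh1l1, with 23 reads and 0.0970 RPKM. Sfxn1, which carries serine into mitochondria and was named after its value was seen, had 9.93 RPKM.

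Among serine and glycine transporters 4 of 6 lay above the detected median, as did 34% of protein-coding genes. Slc1a5 had 24.4 RPKM, Slc1a4 10.9 RPKM, Slc38a1 10.3 RPKM and Slc36a1 8.24 RPKM, while the glycine transporter gene Slc6a9 had 2.86 RPKM and Slc7a10 had 6 reads. Slc1a4 was the 1 gene with TGATGNAA among the 4 of these that had a window, beside 3.81% of protein-coding genes.

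The collagen chains that draw on glycine stood above every one of the 10 genes, save Col5a1. Col1a1 had 424 RPKM, Col1a2 243 RPKM, Col3a1 206 RPKM and Col5a2 135 RPKM, whereas Col5a1, at 63.6 RPKM, lay below Atf4. With the longest transcript, the RefSeq-matched transcript and coding length Col5a1 lay below Psat1 and Shmt2 as well, and the other 4 chains stayed above all 10 genes. Col1a1 exceeded Psat1 8.04 times per length (7.89 to 8.20; between 3.31 and 8.04 over the lengths), Shmt2 8.46 times (8.27 to 8.65) and Phgdh 55.9 times (52.5 to 59.6). These are ratios of transcripts and do not measure the flow of serine or glycine.

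**Figure D3:**
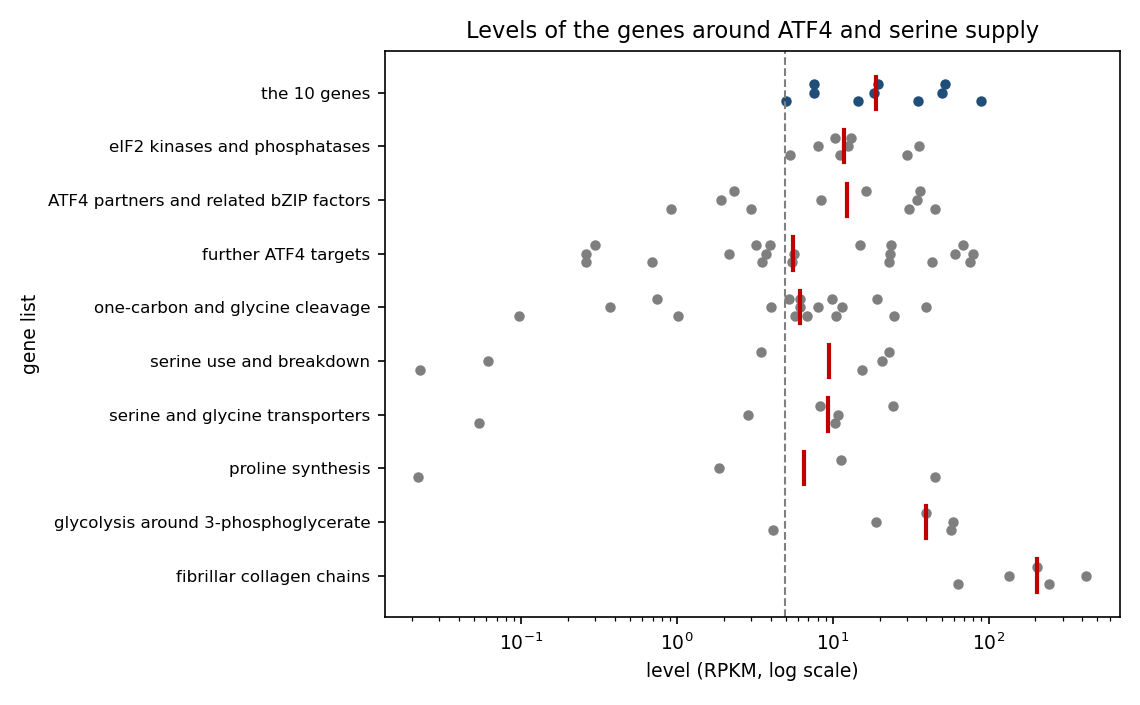
Level of each gene (points; x axis, RPKM over the union of exons, log scale) by gene list (y axis) in the single library; blue points are the 10 genes, red bars list medians, and the dashed line the median of detected protein-coding genes (4.94 RPKM). The 10 genes have a median of 19.1 RPKM, the further ATF4 targets one of 5.55 RPKM with a wider spread, and the fibrillar collagen chains one of 206 RPKM.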

How the data were processed

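The authors' deposited signal was 1 value for each of 24214 rows. Of 20976 values above 0, 100% were whole multiples of 1.18 within 0.01 of a multiple, so whole reads were recovered as values times a size factor of 0.850. DESeq and mm10 stand in the submitters' processing notes without a role; the aligner, counter, strand setting and annotation release were not given in the sources used here. No count test was run, for want of replicates. Rows of 1 gene were summed. Genes with NM accessions (20559) were taken as protein-coding, and 99.2% had a GENCODE M21 exonic length (union of exons); coordinates are RefSeq GRCm38.p6, 1-based. Other lengths were those of the longest transcript, the transcript matched to the row's accession, and the coding part. Copies were searched with BLAST+ 2.17.0 (megablast). Ratio intervals are exact and conditional on the summed reads. Reads are not independent molecules, so intervals cover counting error only. The 10 genes and 9 further lists (81 genes) were chosen with earlier results of these data known; text names all genes of lists up to 10, otherwise the 5 highest, the 2 lowest and the paralogs Shmt1, Mthfd1, Mthfd1l, Mthfd2l and Atf5. Genes with a motif match were named after the matches were seen. A gene that the rule would name is not reported here. On simulated data, 100% of 24214 rows were recovered at each of 3 size factors. Scripts ran in Python 3.11.15 with scipy 1.17.1, pandas 2.3.3, numpy 2.4.6 and, for plots, matplotlib 3.10.9.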

Additional observations from a re-analysis of the deposited data

How the results depend on the processing

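No paired analysis was possible because there is 1 sample, which also bars leaving out a replicate. All 10 genes stayed detected at minimums of 1 and 50 reads. The share of all protein-coding genes was taken only at 10 reads, where it was 67.6%, so no share stands beside these minimums. The median of 50.6 CPM was the same when rows were kept separate. The median was 67.7 CPM with a total without the 100 most abundant genes, 55.1 CPM with a total of protein-coding genes and 32.7 CPM without Psat1, the most abundant of the 10. The Shmt2 to Shmt1 ratio of 7.31 was 5.85 without division by length, 7.31 with the longest and the RefSeq-matched transcript and 5.55 with coding length. The Mthfd2 to Mthfd1 ratio of 0.497 was 0.390 without division by length, 0.606 with the longest and with the RefSeq-matched transcript and 0.929 with coding length. The Phgdh to Psph ratio of 1.01 was 0.577 without division by length, 0.877 with the longest transcript, 0.528 with the RefSeq-matched transcript and 0.236 with coding length. The number among the highest 10% was 4 of the 10 genes, beside 6.8% of protein-coding genes, and 3 without division by length. RefSeq-matched and coding lengths, the other scales for the remaining ratios and for the counts above the median and among the highest 10%, and the adding of reads of copies were chosen after seeing the data. Adding the reads of Gm8096 moved Phgdh from 7.59 to 8.31 RPKM. Read length, and so the reach of reads shared with copies, was not given in the sources used here.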

Other observations

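Proline, like glycine, is a main residue of collagen, and 4 genes of its synthesis and breakdown were listed. Of these, 2 lay above the detected median, as did 34% of protein-coding genes. Aldh18a1, which makes the precursor from glutamate, had 45.5 RPKM (44.6 to 46.4), 5.99 times the level of Phgdh per length (5.61 to 6.40). The reductase gene Pycrl had 11.3 RPKM and Pycr1, whose promoter window holds TGATGNAA, 1.86 RPKM. Prodh, which breaks proline down, had 9 reads. Of 6 genes that consume serine, Sptlc2 and Sptlc1, subunits of the enzyme that opens sphingolipid synthesis, had 22.9 and 20.8 RPKM and the phosphatidylserine synthase gene Ptdss1 15.5 RPKM. Srr, the racemase gene, had 3.46 RPKM, Cbs, which joins serine to homocysteine, 24 reads, and Sds, which degrades serine, 2 reads.

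Ddit3 and Shmt2 lie 220831 bases apart on chromosome 10 of GRCm38.p6, with 6 protein-coding genes between them. Their levels were 18.5 and 50.2 RPKM.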
